A study of Mus musculus with 12 samples.

Results

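The genes of 10 enzymes that make serine, proline, asparagine and one-carbon units were examined in gastrocnemius, a calf muscle, of mice lacking ankyrin-B in muscle fibres. They were taken by symbol from an expression table of 24528 genes: Phgdh, Psat1 and Psph of serine synthesis, Shmt1, Shmt2, Mthfd2 and Mthfd1l of the folate cycle, Aldh18a1 and Pycr1 of proline synthesis, and Asns of asparagine synthesis. All 12 libraries came from males aged 4 months that carried floxed Ank2 (Ank2f/f), the gene of ankyrin-B, an adaptor between membrane proteins and the spectrin cytoskeleton. The 6 WT libraries are of mice with no Cre transgene. The 6 KO libraries are of mice that also carried HSA-Cre, in which a skeletal muscle actin promoter drives Cre, so other cells of the muscle keep intact alleles, and no mice with HSA-Cre and unfloxed Ank2 were analysed here. Each library held poly-A RNA of bulk muscle, without strand information.

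Serine is made from the glycolytic intermediate 3-phosphoglycerate in successive steps by Phgdh, Psat1 and Psph. Serine hydroxymethyltransferases then split it into glycine and a one-carbon unit carried on folate, and Mthfd2 and Mthfd1l turn that unit into formate in mitochondria. Proline is made from glutamate by Aldh18a1 and Pycr1, and Asns makes asparagine from aspartate and glutamine. Transcripts of these pathways are textbook targets of ATF4, the transcription factor of the integrated stress response, and in muscle they are known to respond to mitochondrial stress.

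Values are the deposited log2 values unless a percentage or a level per length is named. Differences are KO minus WT on that scale with the standard error (SE) of a limma fit across the table, and adjusted p-values are Benjamini-Hochberg over all 12217 tested genes, called at or under 0.05. The deposited scale has a floor of 5.57 and compresses differences between low values, so levels are also given as scaled reads, the back-transformed value, in percent of the WT mean. Estimated depth was 12354928 to 16836713 reads in WT libraries and 13500204 to 18732697 in KO libraries. Ank2 lay between 8.40 and 9.22 in WT and between 7.54 and 8.03 in KO, a difference of -1.15 (SE 0.14, limma adjusted p = 0.000879). KO 2 stood apart from the other KO libraries in the number of genes above the floor. This number was 14836 there, 14746 to 15056 in WT libraries and 15256 to 15794 in the remaining KO libraries. KO 2 also had the lowest depth of the KO libraries (13500204 reads), while WT 4, at 16836713 reads, had 14802 genes above the floor. The part of depth in this number was not tested. By the quality weight per library that an alternative fit used, KO 1 was lowest (0.491), then WT 4 (0.692) and KO 2 (0.803). Without KO 2, 12.4% of the tested genes were called, against 6.16% with all 12 libraries. The share was between 1.59% and 3.00% without WT 1, WT 2, WT 3, WT 5, WT 6, KO 1, KO 3 or KO 6. Of the 10 skeletal muscle fibre markers, all were tested and none was called, with 1 at an unadjusted p at or under 0.05 and none by limma-voom. They summed to 2882754 to 3788131 scaled reads in WT and 2860517 to 3429714 in KO, a sum that weighs the genes with most reads. Single markers varied more: Myh2 differed by -1.40 (SE 0.75, limma adjusted p = 0.269) and Mylpf by 0.38 (SE 0.13, limma adjusted p = 0.0895). Myh2 ran from 17.2% to 163% of the WT mean in WT and from 5.86% to 80.5% in KO. Of the estimates 6 were above 0 and 4 below.

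Psat1, Psph and Pycr1 rose in KO muscle, and none of the tested enzyme genes fell. Of the 10 genes, 9 passed the filter, which asked for 10 or more estimated reads in 6 or more libraries, and Mthfd1l did not. Psat1, the phosphoserine aminotransferase, had the largest difference (0.82) of the 9. Among the called genes came then Psph, the phosphoserine phosphatase (0.32), and Pycr1, a pyrroline-5-carboxylate reductase (0.30), while Mthfd2, at 0.38, did not pass the test. Of all tested genes 3.10% rose and 3.06% fell, and the 3 of 9 enzyme genes are to be read against that share. At an unadjusted p at or under 0.05, 4 of the 9 were higher and 0 lower, where 26.0% of all tested genes passed (11.9% higher and 14.1% lower). Limma-voom on estimated reads called 2 higher and 0 lower, where it called 5.43% of all tested genes (339 higher and 324 lower). The 9 estimates were all above 0, with a median of 0.14, where 47.6% of all tested estimates were above 0 and their median was -0.01. The mean difference of Mthfd1l, which was not tested, was below 0 (-0.08). In a bulk sample, a change in the number of cells of a type cannot be told apart from a change in RNA per cell.

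**Figure D1:**
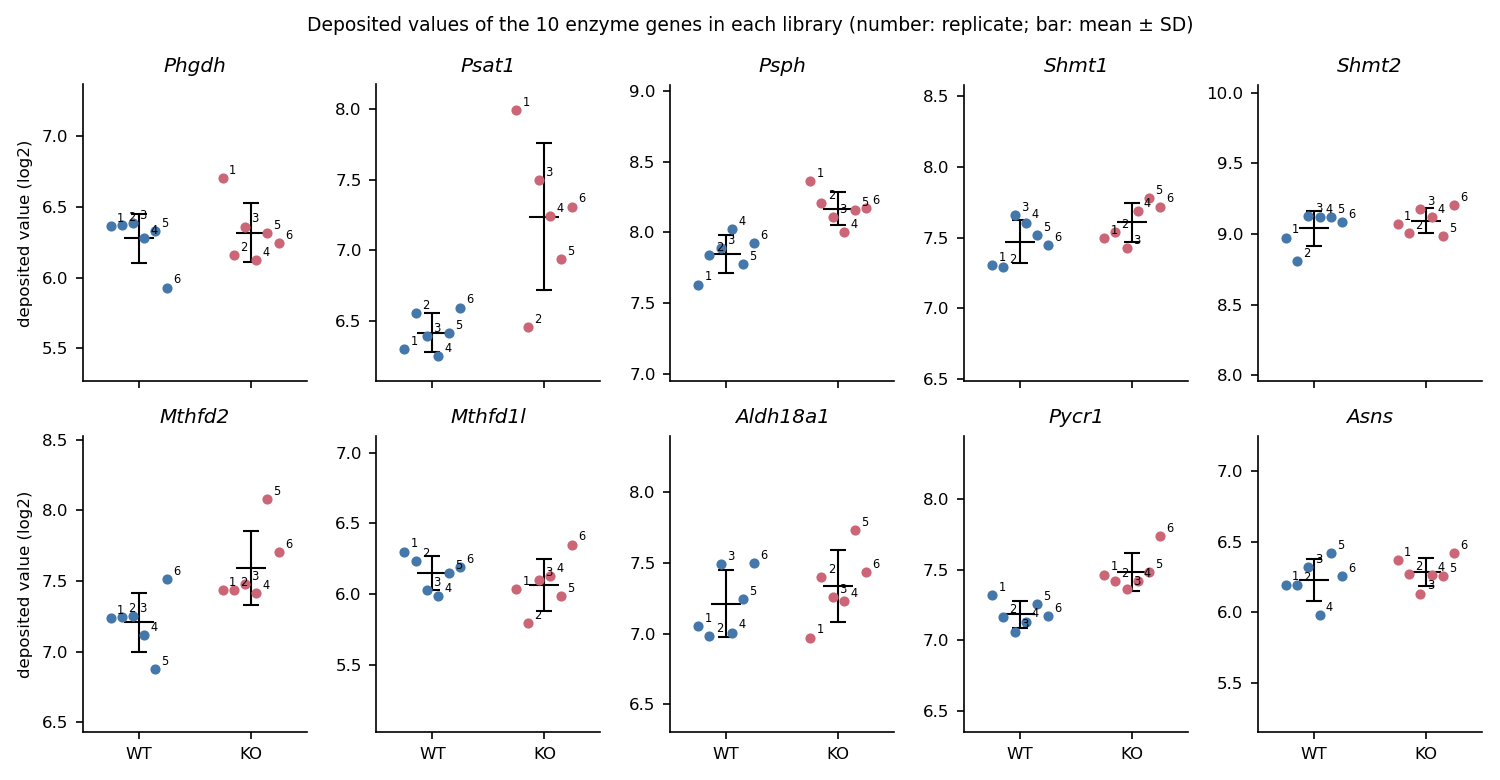
Each panel plots the deposited log2 value of 1 enzyme gene in the 6 WT (blue) and 6 KO (red) libraries, numbered by replicate, with the mean and SD as a black bar and an equal span on every vertical axis. Psat1 spreads from 6.46 to 7.99 in KO with KO 2 at the WT level, while the KO values of Pycr1 all lie above the WT values.

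Promoter sequence was read from RefSeq (GRCm38.p6) because called members moved in the same direction. All 10 genes matched an entry, Psat1 with 2 starts. The 250 bases before each start were searched on both strands for TGATGNAA, the core of the composite element bound by ATF4 with C/EBP factors, for the E-box CACGTG and for TGACNNNGC, the core of the antioxidant response element. TGATGNAA was present upstream of Pycr1, from -103 to -96 relative to the RefSeq start, and of Asns, from -23 to -16. It occurred in 3.45% of all 32851 windows of that length and in 1.93% of the 12184 windows of tested genes. None of the 3 motifs was found in the windows of Psat1, Psph, Shmt1, Shmt2, Mthfd2 or Mthfd1l. CACGTG was found upstream of Aldh18a1 (6.02% of all windows, 8.39% of those of tested genes), and TGACNNNGC upstream of Phgdh and Asns (10.2% and 11.9%), and no match overlapped another. A match is a run of letters and not a measured binding site. Bases after the start or farther upstream and inexact matches were not searched, so a window without a match does not show that an element is absent. The sequence at the Mthfd1l start matched no GENCODE transcript of that gene. The stretches below are written in lower case with TGATGNAA matches in capitals, and each runs in the direction of the gene. The Pycr1 stretch is the part of its window that no GENCODE exon covers, chr11:120643770-120643998 on the minus strand. The Psat1 stretch, chr19:15925060-15925309 on the minus strand, precedes the RefSeq start, lies in an intron of a longer GENCODE model and is shown as the gene with the largest rise and no match. The Asns stretch, chr6:7693214-7693243 on the minus strand, gives the motif with its flanks, in bases that GENCODE places in an exon. The Psph window lies wholly in exons and is not shown.
Pycr1: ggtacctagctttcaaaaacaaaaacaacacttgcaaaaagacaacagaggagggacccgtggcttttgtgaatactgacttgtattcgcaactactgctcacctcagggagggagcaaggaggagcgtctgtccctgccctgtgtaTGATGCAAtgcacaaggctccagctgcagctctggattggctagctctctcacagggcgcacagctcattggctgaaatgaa
Psat1: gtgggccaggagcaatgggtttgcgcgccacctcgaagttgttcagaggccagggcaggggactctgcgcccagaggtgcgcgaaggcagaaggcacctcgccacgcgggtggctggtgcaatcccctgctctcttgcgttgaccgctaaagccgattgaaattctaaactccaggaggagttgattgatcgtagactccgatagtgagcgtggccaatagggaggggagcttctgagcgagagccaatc
Asns: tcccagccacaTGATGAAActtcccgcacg

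Phgdh, which oxidises 3-phosphoglycerate and commits it to serine, did not pass the test. Its values ran from 5.93 over a median of 6.35 to 6.39 in WT and from 6.13 over 6.28 to 6.70 in KO. The groups overlapped, with WT 6 lowest and KO 1 highest of all. The difference was 0.04 (SE 0.10, limma adjusted p = 0.833), with a 95% interval of -0.18 to 0.26. The gene, at 98313170 to 98339990 on the minus strand of chromosome 3 (mm10), had between 3.00 and 14.9 estimated reads in WT and between 7.03 and 36.9 in KO, so counting error is large.

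Psat1, the next enzyme, transfers an amino group from glutamate onto the phosphorylated intermediate. Its mm10 position is chromosome 19, 15904678 to 15947337, minus strand. WT values ran from 6.26 over a median of 6.40 to 6.60, and KO values from 6.46 over 7.28 to 7.99. The KO libraries other than KO 2 all lay above every WT library, and KO 2 lay within the WT range. The difference was 0.82 (SE 0.19, limma adjusted p = 0.0310; exact permutation p = 0.00649). In scaled reads, KO muscle stood at 461% ± 295 of the WT mean (SD, n = 6), with 106% in KO 2, 264% in KO 5, 412% in KO 4, 448% in KO 6, 565% in KO 3 and 968% in KO 1. The SD of the deposited values was 0.14 in WT and 0.52 in KO. In WT only 10.9 to 25.0 estimated reads per library stood behind the gene, against 16.1 to 201 in KO.

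The Psat1 call rested on several libraries. Without KO 2 the difference was 0.98 (limma adjusted p = 0.00054), and without KO 1, the highest, it was 0.67 (limma adjusted p = 0.0334). Without WT 1, WT 2, WT 3, WT 5, KO 3 or KO 6 the adjusted p was 0.0574 to 0.0737, and with limma-voom it was 0.0530. The differences stayed between 0.67 and 0.98 with any 1 library left out.

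Psph removes the phosphate in the last step to serine. The gene is at 129765558 to 129787449 of chromosome 5, minus strand. WT values ran from 7.63 over a median of 7.86 to 8.02 and KO values from 8.00 over 8.16 to 8.36. The groups met at a single pair, WT 4 above KO 4, and the other 5 KO libraries lay above all WT libraries, KO 2 among them at 8.21. The difference was 0.32 (SE 0.08, limma adjusted p = 0.0277; exact permutation p = 0.00433), and scaled reads in KO averaged 138% ± 16.0 of those in WT (SD, n = 6). Behind it stood 100 to 175 estimated reads in WT and 181 to 286 in KO. Without WT 1, WT 2, WT 3, WT 5, KO 1, KO 3 or KO 6 the adjusted p was 0.0511 to 0.0625. Exons of Cct6a, a chaperonin subunit gene on the other strand, overlap those of Psph, and reads of shared bases cannot be assigned without strand. Cct6a itself lay between 10.72 and 10.86 in WT and between 10.60 and 10.96 in KO, a difference of 0.03 (SE 0.08, limma adjusted p = 0.823), and it is named here with its values known.

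Shmt1 is the cytosolic and Shmt2 the mitochondrial serine hydroxymethyltransferase, and neither passed the test. Shmt1 ran from 7.29 over a median of 7.48 to 7.66 in WT and from 7.43 over 7.61 to 7.78 in KO, with 3 KO libraries above all WT libraries. Its difference was 0.14 (SE 0.09, limma adjusted p = 0.318), with a 95% interval of -0.04 to 0.32. The values of Shmt2 ran from 8.81 over a median of 9.10 to 9.13 in WT and from 8.98 over 9.10 to 9.20 in KO, so the medians nearly coincided. Its difference was 0.05 (SE 0.07, limma adjusted p = 0.656), with an interval of -0.10 to 0.21, the narrowest of the 9 genes. Exons of Smcr8 overlap those of Shmt1, and exons of Ndufa4l2 overlap those of Shmt2, both on the other strand. Smcr8 stood at -0.44 (SE 0.16, limma adjusted p = 0.109) and Ndufa4l2 at -0.10 (SE 0.12, limma adjusted p = 0.620), and both are named with their values known.

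Mthfd2, the mitochondrial methylenetetrahydrofolate dehydrogenase, was near the threshold without passing it. It ran from 6.88 over a median of 7.24 to 7.52 in WT and from 7.41 over 7.46 to 8.08 in KO. WT 6 at 7.52 lay above KO 1, KO 2, KO 3 and KO 4, which were between 7.41 and 7.48, and KO 5 and KO 6 lay above all WT libraries. The difference was 0.38 (SE 0.12, limma adjusted p = 0.0629; exact permutation p = 0.0108), with a 95% interval of 0.13 to 0.63, and scaled reads in KO averaged 162% ± 53.5 of those in WT (SD, n = 6). The adjusted p was 0.0411 without KO 2 and 0.0413 with a quality weight per library. It was 0.0517 to 0.137 without any other single library, highest without KO 6, and 0.0866 with a replicate block, and the difference was lowest without KO 5 (0.29). Mthfd1l, the synthetase that releases formate, failed the filter and was not tested. Its values were 5.98 to 6.30 in the WT libraries and 5.79 to 6.35 in the KO libraries, on 4.01 to 10.9 and 1.00 to 16.0 estimated reads. The mean difference was -0.08, with scaled reads in KO at 78.8% ± 55.0 of the WT mean (SD, n = 6). The exact permutation p was 0.385, and how large a difference could be detected on so few reads was not tested.

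Of the proline enzymes, Pycr1, which makes proline in the final step, separated the groups. The gene occupies 120635712 to 120643769 of chromosome 11, minus strand. WT values ran from 7.06 over a median of 7.17 to 7.32 and KO values from 7.36 over 7.44 to 7.74. All 6 KO libraries lay above all 6 WT libraries, as in 1.26% of all tested genes. The difference was 0.30 (SE 0.08, limma adjusted p = 0.0342). The exact permutation p was 0.00216, which is the lowest value this design allows. In scaled reads KO stood at 146% ± 24.9 of the WT mean (SD, n = 6), on 46.0 to 69.3 estimated reads in WT and 77.6 to 145 in KO. Without WT 2, WT 3, WT 5, WT 6, KO 1, KO 3 or KO 6 the adjusted p was 0.0511 to 0.0841, and the difference stayed between 0.25 and 0.32 without any 1 library.

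Aldh18a1, which activates glutamate at the start of that route, did not pass. It ran from 6.98 over a median of 7.15 to 7.50 in WT and from 6.97 over 7.33 to 7.73 in KO, with the lowest value of all in KO 1 and the highest in KO 5. The difference was 0.12 (SE 0.12, limma adjusted p = 0.543), with a 95% interval of -0.13 to 0.38. Asns, the asparagine synthetase, ran from 5.98 over a median of 6.23 to 6.42 in WT and from 6.13 over 6.27 to 6.42 in KO. Its groups overlapped in full, and the difference was 0.06 (SE 0.08, limma adjusted p = 0.686), with an interval of -0.11 to 0.23. The level in scaled reads was 115% ± 31.9 of the WT mean in KO (SD, n = 6), on 3.99 to 15.0 estimated reads in WT, so the interval in reads is wide.

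**Figure D2:**
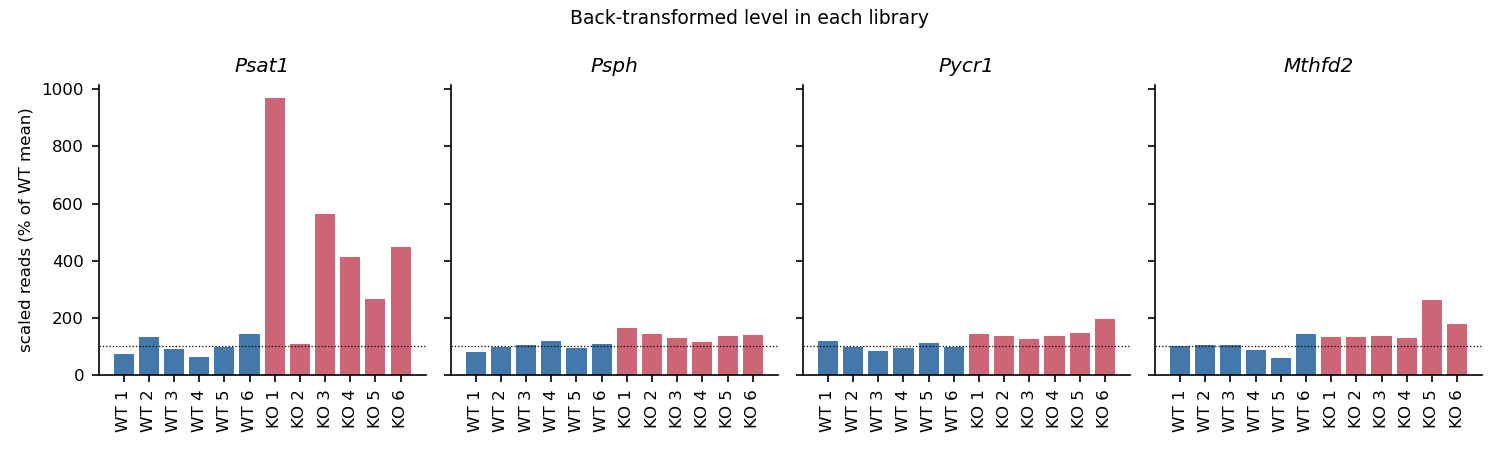
Bars give scaled reads in percent of the WT mean (dotted line at 100) for the 4 enzyme genes with an unadjusted p at or under 0.05, in each WT (blue) and KO (red) library. Psat1 reaches 968% in KO 1 and stands at 106% in KO 2, while Psph and Pycr1 stay between 117% and 195% in every KO library.

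Per length, the enzyme genes covered a wide range of levels in WT muscle. In estimated reads per kilobase of merged exons and per 1000000 library reads, Shmt2 was highest at 9.31 ± 1.10 (SD, n = 6). Psph followed at 2.22 ± 0.25, then Shmt1 at 1.64 ± 0.29, Mthfd2 at 1.32 ± 0.39, Aldh18a1 at 1.16 ± 0.41 and Pycr1 at 1.12 ± 0.18. Lowest were Phgdh at 0.33 ± 0.13, Psat1 at 0.27 ± 0.09, Asns at 0.26 ± 0.12 and Mthfd1l at 0.12 ± 0.05. Neighbours from Shmt1 to Pycr1, and from Phgdh to Asns, differed by less than the larger of their SDs. In KO the Psat1 level was 1.29 ± 0.86, beside Aldh18a1 at 1.35 ± 0.39 and above Phgdh at 0.39 ± 0.25.

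The called enzyme genes did not rank the KO libraries alike. KO 1 was highest for Psat1, Psph and Phgdh and lowest for Aldh18a1. KO 6 was highest for Pycr1, and KO 5 was highest for Mthfd2, Aldh18a1 and Shmt1. After removal of the group means, Pearson's r over the 12 libraries was 0.23 between Psat1 and Psph, 0.03 between Psat1 and Pycr1 and -0.25 between Psph and Pycr1. Over all 36 pairs of the 9 tested genes the median was 0.087, from -0.52 for Phgdh with Aldh18a1 to 0.64 for Mthfd2 with Aldh18a1. These values are descriptions over 12 libraries, and the genes of a library share its depth and composition.

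For each called enzyme gene, the 3 tested genes with the highest Pearson's r over the 12 libraries were taken. Since they are the extremes of all tested genes, their r is a description. Psat1 was followed by Dock4, an exchange factor gene of the GTPase Rac, at r = 0.99 (Spearman's rho 0.95). The r was 0.98 after removal of the group means and 0.98 without KO 1 and KO 3, the libraries farthest from the Psat1 median. KO 2 lay with the WT libraries for both genes. Plcd1, a phospholipase C gene, and Nudt14, a UDP-sugar hydrolase gene, both followed at r = 0.97 (rho 0.93 and 0.86). Their r was 0.97 and 0.92 after removal of the group means, and 0.93 and 0.94 without KO 1 and KO 3. Dock4 differed by 0.45 (SE 0.12, limma adjusted p = 0.0419), Nudt14 by 0.49 (SE 0.11, limma adjusted p = 0.0230) and Plcd1 by 0.31 (SE 0.10, limma adjusted p = 0.0774).

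Psph was followed by Zswim3, a zinc finger gene (r = 0.95), by Sil1, an exchange factor gene of the chaperone BiP (r = 0.92), and by Aimp2, a scaffold gene of the tRNA synthetase complex (r = 0.91). Their rho was 0.95, 0.92 and 0.88, and r was 0.93, 0.89 and 0.89 without WT 1 and KO 1. After removal of the group means r was lower, at 0.84, 0.78 and 0.72. Pycr1 was followed by Srxn1, the sulfiredoxin gene (r = 0.93), Capn2, a calpain gene (r = 0.91), and Fbln7, a fibulin gene (r = 0.90). Their rho was 0.89, 0.94 and 0.90, and r was 0.81, 0.90 and 0.91 without KO 6 and WT 3. After removal of the group means r was 0.83, 0.75 and 0.78.

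**Figure D3:**
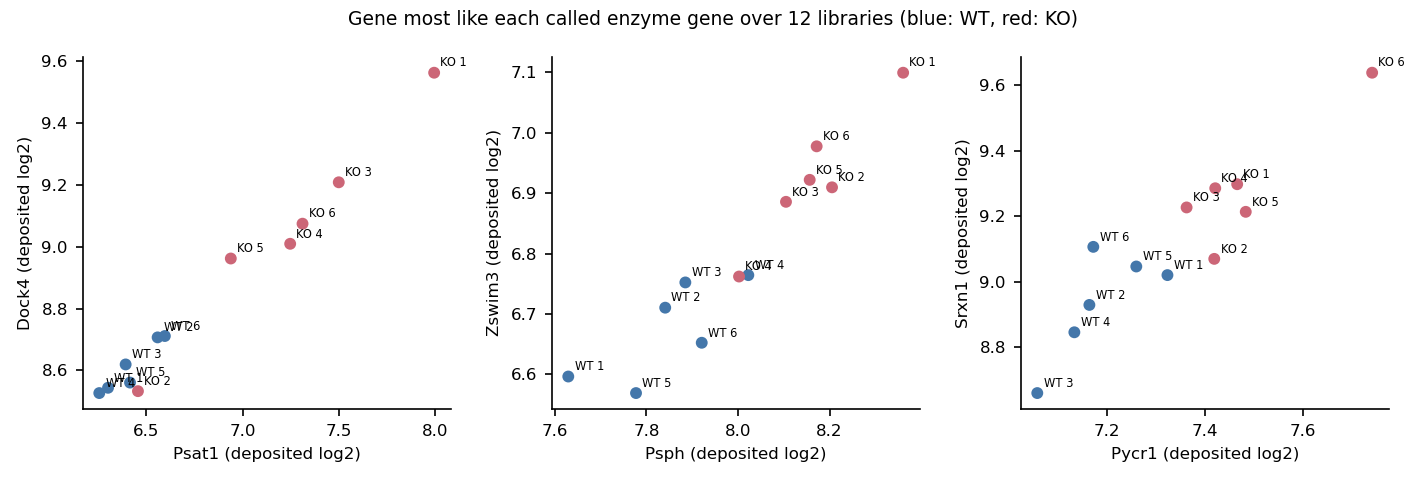
Each point is 1 library (blue WT, red KO), with the deposited log2 value of a called enzyme gene on the horizontal axis and that of the gene most like it on the vertical axis. Psat1 and Dock4 order the KO libraries alike from KO 2 to KO 1 (r = 0.99 over 12 libraries), whereas KO 1 leads Psph and KO 6 leads Pycr1.

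None of the reported genes that surround these enzymes was called higher, where 3.10% of all tested genes rose and 3.06% fell. At that share, lists this short would hold few calls. At an unadjusted p at or under 0.05, 11.9% of all tested genes were higher and 14.1% lower. In glycine and serine handling, 0 of 10 tested genes were called by limma or by limma-voom, with 0 higher and 1 lower at an unadjusted p at or under 0.05. The smallest p were those of Srr, the serine racemase gene (-0.33, SE 0.10, limma adjusted p = 0.0615), and Dld, a subunit gene of the glycine cleavage system (-0.16, SE 0.09, limma adjusted p = 0.280). In the rest of the folate cycle, 0 of 17 were called by either tool, with 3 higher and 2 lower unadjusted. The nearest were the folate transporter gene Slc46a1 (0.29, SE 0.10, limma adjusted p = 0.0820) and Fpgs, which retains folate in cells (0.29, SE 0.11, limma adjusted p = 0.121). Slc46a1 had only 4.99 to 11.1 estimated reads in WT and 6.03 to 40.9 in KO. It passed the filter mainly through the KO libraries, with 10 or more reads in 1 WT and 5 KO libraries. In the methionine cycle and transsulfuration, 0 of 11 were called by either tool, with 0 higher and 2 lower unadjusted, Ahcyl2 (-0.26, limma adjusted p = 0.0809) and Adi1 (-0.31, limma adjusted p = 0.106). The medians of these lists were 0.01, 0.03 and -0.03.

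Among genes that degrade or share the substrates, 2 of those reported fell, where 3.06% of all tested genes fell and 3.10% rose. In proline and ornithine handling, 1 of 6 fell and 0 rose, with 1 higher and 1 lower unadjusted. It was Oat, the ornithine aminotransferase, whose reaction meets the proline route at pyrroline-5-carboxylate. Oat ran from 11.68 over a median of 11.78 to 11.94 in WT and from 11.06 over 11.40 to 11.59 in KO, all KO libraries below all WT libraries, as in 1.20% of all tested genes. It fell by 0.41 (SE 0.09, limma adjusted p = 0.0230), with adjusted p from 0.0570 to 0.0582 without WT 2, KO 3 or KO 6.

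In asparagine, aspartate, glutamine and glutamate handling, 1 of 12 fell and 0 rose, with 1 higher and 3 lower unadjusted and a median of -0.09. Slc25a12, the mitochondrial aspartate-glutamate carrier, fell by 0.42 (SE 0.12, limma adjusted p = 0.0466), with 5 of the 6 KO libraries below all WT libraries. Its adjusted p was 0.0630 to 0.108 without WT 1, WT 2, WT 3, WT 5, WT 6, KO 1, KO 3 or KO 6, and 0.0511 to 0.0618 with no filter, limma-voom or quantile normalization.

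No amino acid transporter gene was called by limma or limma-voom (0 of 14, with 1 higher and 2 lower unadjusted, median -0.01). For this list and the next, the shares over all tested genes were 3.10% called higher and 3.06% lower, and 11.9% and 14.1% unadjusted. The smallest p were those of Slc7a6 (0.37, SE 0.13, limma adjusted p = 0.0829) and Slc38a4 (-0.85, SE 0.28, limma adjusted p = 0.0931). Of 24 genes of regulators of amino acid synthesis, 1 fell and 0 rose, with 1 higher and 3 lower unadjusted and a median of -0.01. The gene that fell was Ppp1r15a, which encodes GADD34, the stress-induced subunit that directs dephosphorylation of eIF2-alpha (-0.36, SE 0.10, limma adjusted p = 0.0376). Its KO values, 8.62 to 9.07, all lay below the WT values, 9.11 to 9.55, as in 1.20% of all tested genes. The adjusted p was 0.0531 to 0.0978 without any 1 of the WT libraries or without KO 1, KO 3 or KO 6. Atf4 transcript lay at 11.24 to 11.73 in WT and 11.34 to 11.61 in KO, a difference of 0.00 (SE 0.09, limma adjusted p = 0.999), with an interval of -0.20 to 0.20. Ddit3 (0.11, limma adjusted p = 0.611) and Trib3 (-0.07, limma adjusted p = 0.587), both known ATF4 targets, did not pass. The gene higher unadjusted was Myc (0.28, SE 0.09, limma adjusted p = 0.0807), with 4 KO libraries above all WT libraries. Larger estimates that did not pass were those of Chac1 (0.68, SE 0.40, limma adjusted p = 0.310) and Cebpb (0.31, SE 0.17, limma adjusted p = 0.269). Besides Ppp1r15a, the genes lower unadjusted were Atf2 (-0.24, SE 0.08, limma adjusted p = 0.0615) and Eif2ak1 (-0.17, SE 0.07, limma adjusted p = 0.140). Of the KO libraries, 5 lay below all WT libraries for Atf2 and 6 for Eif2ak1. Of the 24 estimates 11 were above 0 and 13 below. Atf4, Ddit3, Trib3, Myc, Chac1, Cebpb, Atf2 and Eif2ak1 were named after their values were seen, and ATF4 protein was not measured.

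**Figure D4:**
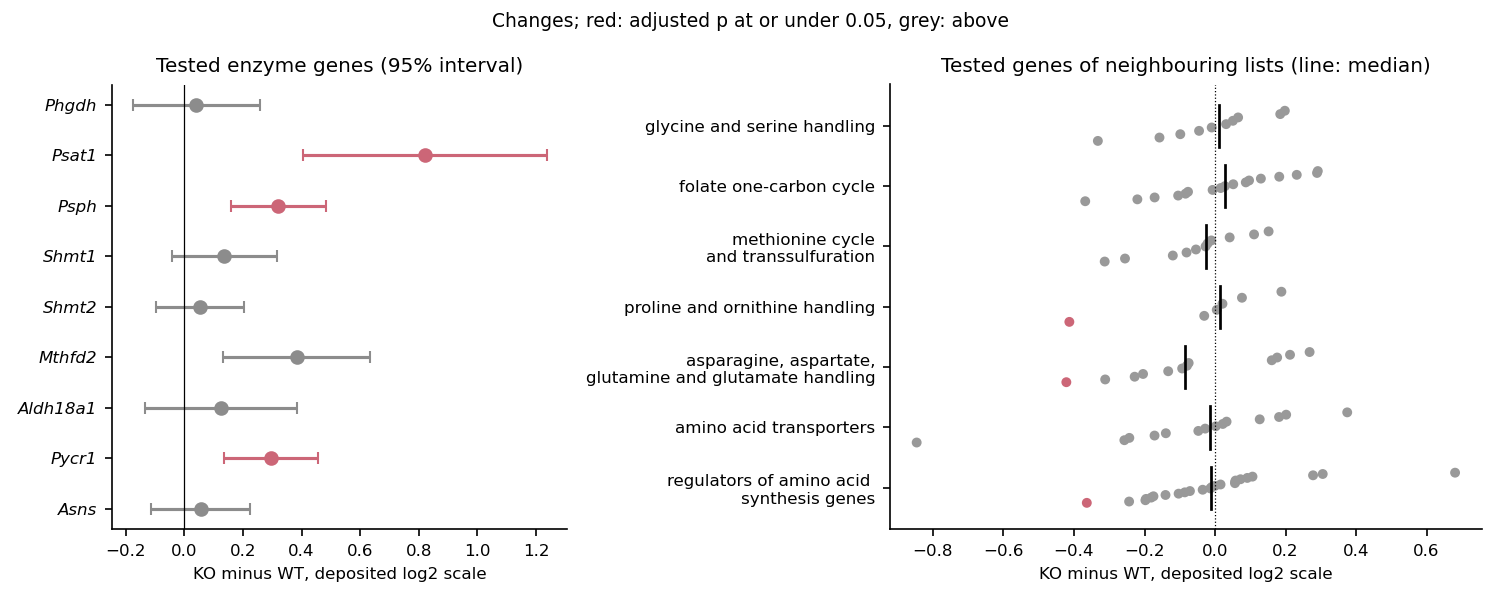
The left panel plots KO minus WT on the deposited log2 scale with its 95% interval for the 9 tested enzyme genes, and the right panel plots each tested gene of the 7 neighbouring lists with a line at the list's median. Red marks an adjusted p at or under 0.05: Psat1, Psph and Pycr1 on the left lie above 0, and Oat, Slc25a12 and Ppp1r15a on the right lie below 0.

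Markers of other cells in the muscle were read beside these results, and their part in them was not tested. None of the markers lay at the floor in every library. Their calls are to be read against the 3.10% of all tested genes that rose and the 3.06% that fell. Of 10 endothelial markers 1 fell, Flt1 (-0.50, limma adjusted p = 0.0349), with 0 higher and 5 lower unadjusted, where 14.1% of all tested genes were lower. Of the endothelial estimates 8 of 10 were below 0, the median was -0.22, and the list summed to 5248 to 7022 scaled reads in WT and 4341 to 6502 in KO. Of 5 tested adipocyte markers 1 fell, Adipoq (-0.34, limma adjusted p = 0.0430), with 0 higher and 3 lower unadjusted and a median of -0.27. Scaled reads in KO averaged 34.9% ± 20.8 of WT for Adipoq, 42.9% ± 39.9 for Cidec and 46.0% ± 23.6 for Cfd, but 100.2% ± 19.1 for Fabp4 (SD, n = 6), and the list summed to 1534 to 2355 in WT and 1292 to 2112 in KO. Of 6 satellite cell markers Cdh15 fell (-0.37, limma adjusted p = 0.0342) and Sdc4 rose (0.27, limma adjusted p = 0.0331), with 1 higher and 1 lower unadjusted and sums of 731 to 812 and 685 to 829. None of the macrophage (9), fibroblast (10) or Schwann cell (8) markers was called by limma or limma-voom, with 1 higher and 1 lower, 0 higher and 1 lower, and 0 in either direction unadjusted. Macrophage estimates were above 0 for 8 markers and below 0 for 1, with a median of 0.22. Fibroblast estimates were above 0 for 7 and below for 3 (median 0.16). All 8 Schwann cell estimates were below 0 (median -0.12). Macrophage sums were 412 to 1524 in WT and 529 to 1505 in KO. Fibroblast sums were 5395 to 12293 and 6758 to 11826, and Schwann cell sums 1156 to 3863 and 512 to 7130.

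**Figure D5:**
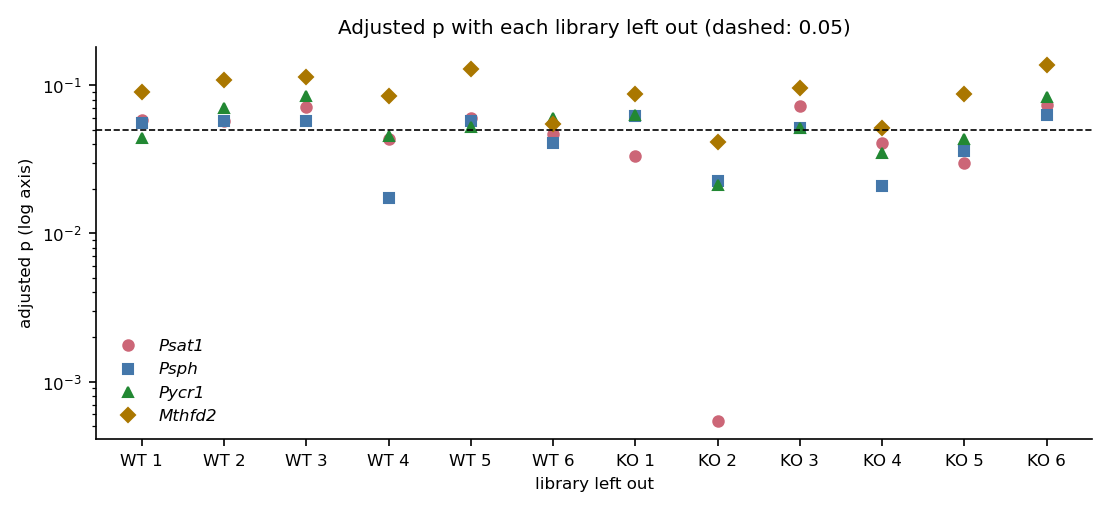
Points give the limma adjusted p (log axis) of Psat1, Psph, Pycr1 and Mthfd2 with each of the 12 libraries left out in turn, and the dashed line marks 0.05. Psat1 reaches 0.00054 without KO 2, and most other points lie close to the line on either side.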

How the data were processed

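RNA of 12 muscle samples was sequenced. Per the submitters' processing notes, fastp, STAR, featureCounts and the build mm10 were used. The authors deposited log2 values, 1 per gene and library, and no label names their transformation. The 12 columns have a single lowest value in common, the shape of a variance-stabilizing transformation. That form was inverted to scaled reads, and the step between low values of a library was taken as 1 read. Of the low values (under 8 scaled reads), 90.7% to 94.2% then lay within 0.1 of a whole number. Estimated reads served the filter, levels and alternatives.

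The deposited values were fitted with limma 3.58.1 (R 4.3.3) with group as the only term, trend and robust moderation, two-sided. Exact permutation tests were two-sided over all assignments of libraries to groups. On simulated data of 12217 genes, the fit recovered 87% of 100 genes changed by 0.5 and 98% of 100 changed by 1, with 9 false calls. The simulated noise was normal and independent between genes, with the same SD in both groups. It left out unequal spread and differences between libraries, so recovery and false calls in the real data can be different.

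The members and lists were chosen with earlier results of these data known. A gene of 1 list is not reported here and was taken out of its counts. Named genes are the members, the 3 genes most like each called member, the called genes of each list, or the 2 with the smallest p where none was called, and Ank2. Positions and exon lengths are from GENCODE M21 (mm10). The labels name separate samples, with KO mice and littermate controls caged together, and do not say outright that each sample is another mouse, so p-values measure the spread between these samples. For limma-voom, trimmed-mean (TMM) factors were computed from the estimated reads. Alternatives covered scaling, filters, tests, gene length, a replicate block and each library left out. Counting error only is covered by read numbers, since PCR duplicates cannot be told from molecules.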

Additional observations from a re-analysis of the deposited data

Results flagged for a closer look

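In 20 groups of 6 libraries (each enzyme gene in WT and in KO), a library far from the others was looked for with Dixon's ratio, which chance passes in about 1 of 20 groups. Phgdh in WT 6, at 5.93, lay far below the other WT libraries at 6.28 to 6.39, and without WT 6 the difference was -0.03. Pycr1 in KO 6, at 7.74, lay far above the other KO libraries at 7.36 to 7.48, and without KO 6 the difference was 0.25 with a limma adjusted p of 0.0827.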

How the results depend on the processing

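The number of called genes was 753 with all libraries, 1167 with a quality weight per library, and 194 (without KO 6) to 1515 (without KO 2) with each library left out. The number of called enzyme genes was 3, and 0 to 4 with each library left out: 0 without WT 2, WT 3, WT 5, KO 3 or KO 6, and 4, with Mthfd2, without KO 2 and with quality weights. With the stricter filter, which removed Psat1, and with limma-voom it was 2, where 6.10% and 5.43% of all genes tested were called. Psat1, Psph and Pycr1 kept their direction under every alternative that could be fitted, and the unadjusted p with each library left out stayed at or under 0.00263, 0.00212 and 0.00363. Phgdh changed sign with quality weights (-0.000406) and ran from -0.037 to 0.079 with each library left out. On log2 scaled reads with a pseudocount of 0.5 the Psat1 difference was 1.95, against 0.82 on the compressed deposited scale. A replicate block gave 813 called genes and 2 called enzyme genes, Psph and Pycr1, with Psat1 at an adjusted p of 0.0590. The replicate numbers share only a number: same-numbered libraries correlated at -0.36 to 0.291 in their deviations, and not every library correlated best with its own number. Phgdh, Asns and Mthfd1l rest on few reads, and how large a difference could be detected there was not tested.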
